A study of Mus musculus with 12 samples.

Results

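RNA sequencing was used to follow 10 well-known transcriptional targets of the tumor suppressor p53 in mouse CD8 T cells: *Cdkn1a*, *Mdm2*, *Ccng1*, *Trp53inp1*, *Sesn1*, *Zmat3*, *Phlda3*, *Aen*, *Polk* and *Rrm2b*. They were listed by name as established p53 targets, with BCL2 family genes left out, and no threshold on measured values was applied. All 10 were found among the 46603 gene identifiers of the count table, each under a single identifier, and all 10 passed the filter on low counts. The cells came from OT-I/Cas9 mice, whose CD8 T cells express a transgenic T cell receptor for an ovalbumin peptide together with the Cas9 nuclease. All were first activated on antibodies to CD3 and CD28, transduced with a retroviral guide RNA, selected in puromycin and expanded with IL-2, IL-7 and IL-15. "Resting" therefore means not restimulated, and "activated" means 24 h on plates coated with 2.5 µg/mL antibody to CD3. In each state, 3 conditions were sampled with 2 libraries each: cells with a guide against *Tmed10* and water as vehicle (knockout), cells with a control guide and 100 µM AGN192403, an imidazoline receptor ligand that the study used against TMED proteins, and cells with a control guide and water (control). The control guide has no target in the genome, so loss of TMED10 and the cutting of DNA by Cas9 cannot be told apart in the knockout, which bears on genes that respond to DNA breaks. Knockout and AGN192403 cells were set against the same control libraries.

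p53 is a transcription factor that is held at low protein levels by MDM2 and is stabilized when DNA is damaged, when ribosome assembly fails or when growth signals are excessive. It binds DNA as a tetramer at pairs of 10-base half-sites, and its targets stop the cell cycle, repair DNA, restrain growth signaling or promote cell death. Much of its regulation acts on the protein, so levels of its mRNA do not report its activity. In T cells, p53 activity is known to restrain proliferation after stimulation through the T cell receptor.

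RefSeq promoter windows (250 bases before to 50 bases after a transcription start, assembly GRCm38.p6) were found for 7 of the 10 genes, in 11 windows. *Zmat3*, *Trp53inp1* and *Rrm2b* had none. A p53 half-site on the consensus, which reads the same on both strands, lay in 7 of the 11 windows (63.6%), belonging to 6 genes, against 8.36% of all 32851 windows. The 2 windows of *Aen* overlap and hold the same half-site, which is thus counted in both. A full site, which is a pair of half-sites with a spacer of at most 13 bases, lay in 1 window (*Cdkn1a*) and in 0.0731% of all windows. The forkhead motif TGTTTAC, searched on both strands, lay in 2 windows (*Mdm2* and *Sesn1*) and in 3.65% of all windows. These letters describe the sequence and do not show that p53 was bound there in these cells. The 250 bases before the start are shown for 3 genes that were higher in activated cells (*Cdkn1a*, *Mdm2* and *Aen*), for *Ccng1*, whose control libraries overlapped between states, and for *Sesn1*, which fell, each 5′ to 3′ on the strand of its gene with p53 half-sites in capitals.
Cdkn1a chr17:29090729-29090978 (plus strand): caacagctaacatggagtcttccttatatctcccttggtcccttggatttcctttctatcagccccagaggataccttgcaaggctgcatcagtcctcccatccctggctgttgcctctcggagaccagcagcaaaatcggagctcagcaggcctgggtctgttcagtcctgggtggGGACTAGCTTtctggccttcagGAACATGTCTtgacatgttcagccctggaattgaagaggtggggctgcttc
Mdm2 chr10:117710759-117711008 (minus strand): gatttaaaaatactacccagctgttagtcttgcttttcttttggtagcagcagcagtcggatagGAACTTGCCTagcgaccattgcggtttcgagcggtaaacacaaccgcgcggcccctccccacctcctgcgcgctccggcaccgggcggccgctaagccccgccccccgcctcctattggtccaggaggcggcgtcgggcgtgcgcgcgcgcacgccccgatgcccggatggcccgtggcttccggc
Aen chr7:78895808-78896057 (plus strand): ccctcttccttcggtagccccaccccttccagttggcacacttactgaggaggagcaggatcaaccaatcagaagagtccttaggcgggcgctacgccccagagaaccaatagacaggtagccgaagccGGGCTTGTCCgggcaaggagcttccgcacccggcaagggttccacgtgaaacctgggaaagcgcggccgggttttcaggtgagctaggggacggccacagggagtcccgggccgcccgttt
Ccng1 chr11:40755287-40755536 (minus strand): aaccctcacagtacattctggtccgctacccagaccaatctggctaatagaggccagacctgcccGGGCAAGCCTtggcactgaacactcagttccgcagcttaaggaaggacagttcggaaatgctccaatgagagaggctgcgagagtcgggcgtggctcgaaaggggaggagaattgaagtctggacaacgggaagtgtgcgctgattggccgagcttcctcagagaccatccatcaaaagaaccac
Sesn1 chr10:41887189-41887438 (plus strand): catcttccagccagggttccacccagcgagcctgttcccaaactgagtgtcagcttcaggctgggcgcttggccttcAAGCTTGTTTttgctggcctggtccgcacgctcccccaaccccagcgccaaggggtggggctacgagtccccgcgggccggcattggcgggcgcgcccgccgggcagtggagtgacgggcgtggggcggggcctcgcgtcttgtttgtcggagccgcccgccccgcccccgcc
The 2 half-sites of *Cdkn1a* began 73 and 51 bases before the start of 1 of its 2 windows and together meet the definition of a full site used here. Only exact matches were searched, so half-sites with a mismatch, also any next to those marked, are not in capitals. Its other window, further downstream, held none. The half-site of *Mdm2* began 186 bases before its start and that of *Ccng1* 185 bases before. Those of *Aen* and *Sesn1* began 121 and 173 bases before the starts shown. The *Polk* half-site began 231 bases before the start of 1 of its 2 windows, and the *Phlda3* window held none.

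Total counts ran from 9089350 to 16481840 per library, and the 120 counts of the 10 genes from 250 to 16768. The targeted gene, *Tmed10*, had 55.9 and 58.33 CPM (counts relative to library size, scaled by TMM) in activated knockout cells, against 128.1 and 125.3 CPM in activated controls. In resting cells it had 61.54 and 65.06 CPM in the knockout, against 116.4 and 116.9 CPM in controls, so transcripts were still counted in both (log2 fold change −1.15 and −0.89). All 10 CD8 T cell markers were tested, and their sum ran from 12480 to 24320 CPM, whereas those of CD4 T cells (4 of 5 tested) summed to 55.21 to 98.11 CPM, of NK cells (2 of 5) to 82.4 to 174.6 CPM, of B cells (2 of 6) to 29.66 to 163.3 CPM, of myeloid cells (5 of 10) to 58.14 to 165.9 CPM, of stromal and endothelial cells (1 of 6) to 21.99 to 98.13 CPM, and of erythroid cells and platelets (0 of 6) to at most 0.2997 CPM. Of single genes on these lists, *Cd4* had at most 1.291 CPM and *Lyz2* at most 0.2114 CPM in any library, and *Ms4a1* was at 0 in all. The sums for CD4 T cells, myeloid cells and B cells therefore came mostly from other genes on their lists. *Pecam1*, the only stromal and endothelial marker tested, reached 97.3 CPM. Whether a few cells of other types were present was not tested. Nuclear long RNAs varied between replicates. Their sum was 1451 and 1360 CPM in activated knockout, 3512 and 1928 CPM in activated AGN192403, 3269 and 2378 CPM in activated control, 2402 and 2440 CPM in resting knockout, 2955 and 2943 CPM in resting AGN192403, and 5314 and 3601 CPM in resting control cells. The first libraries of the activated AGN192403, activated control and resting control groups therefore stood apart, and their part in the differences described here was not tested beyond the fit without these 3 libraries. The labels do not say whether replicates were separate cultures or mice, so p-values may measure technical spread only. In bulk RNA, fewer cells with a transcript and less transcript per cell cannot be told apart.

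By CPM, some p53 targets were among the more abundant transcripts of these cells, and others lay near the middle. *Ccng1* averaged 816.3 CPM over the 12 libraries, above 99.3% of the 13167 genes tested, and *Cdkn1a* averaged 760.3 CPM, above 99.1%. *Rrm2b* was the lowest of the 10 at 29.48 CPM, still above 51.9% of genes. To allow for gene length, levels were also taken per kilobase of all annotated exons of a gene. Annotated exons that these cells do not use count in that length, so the order between genes is approximate. Activated control cells had 278.9 CPM per kb of *Cdkn1a*, 223.7 of *Ccng1*, 53.38 of *Mdm2*, 25.69 of *Phlda3* and 21.82 of *Zmat3*. They had 16.13 of *Aen*, 14.79 of *Polk*, 13.48 of *Trp53inp1*, 5.417 of *Sesn1* and 2.971 of *Rrm2b*. Resting control cells had 228.5 CPM per kb of *Ccng1*, 139.9 of *Cdkn1a*, 75.54 of *Trp53inp1*, 39.86 of *Mdm2*, 23.69 of *Sesn1*, 21.24 of *Phlda3*, 19.29 of *Zmat3*, 16.55 of *Polk*, 11.36 of *Aen* and 2.817 of *Rrm2b*. *Cdkn1a* thus stood above *Ccng1* in activated cells and below it in resting cells, and *Trp53inp1* moved from the third place of the resting order to the eighth of the activated one. In control cells no neighbours in either order overlapped between libraries. Overlaps were found between 1 of 9 neighbouring pairs in activated knockout cells (*Trp53inp1* and *Aen*) and 1 of 9 in resting AGN192403 cells (*Sesn1* and *Phlda3*). Over the 6 groups, the highest group mean was 5.65 times the lowest for *Trp53inp1*, 4.41 times for *Sesn1* and 2.37 times for *Cdkn1a*, but only 1.09 times for *Ccng1*.

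**Figure D1:**
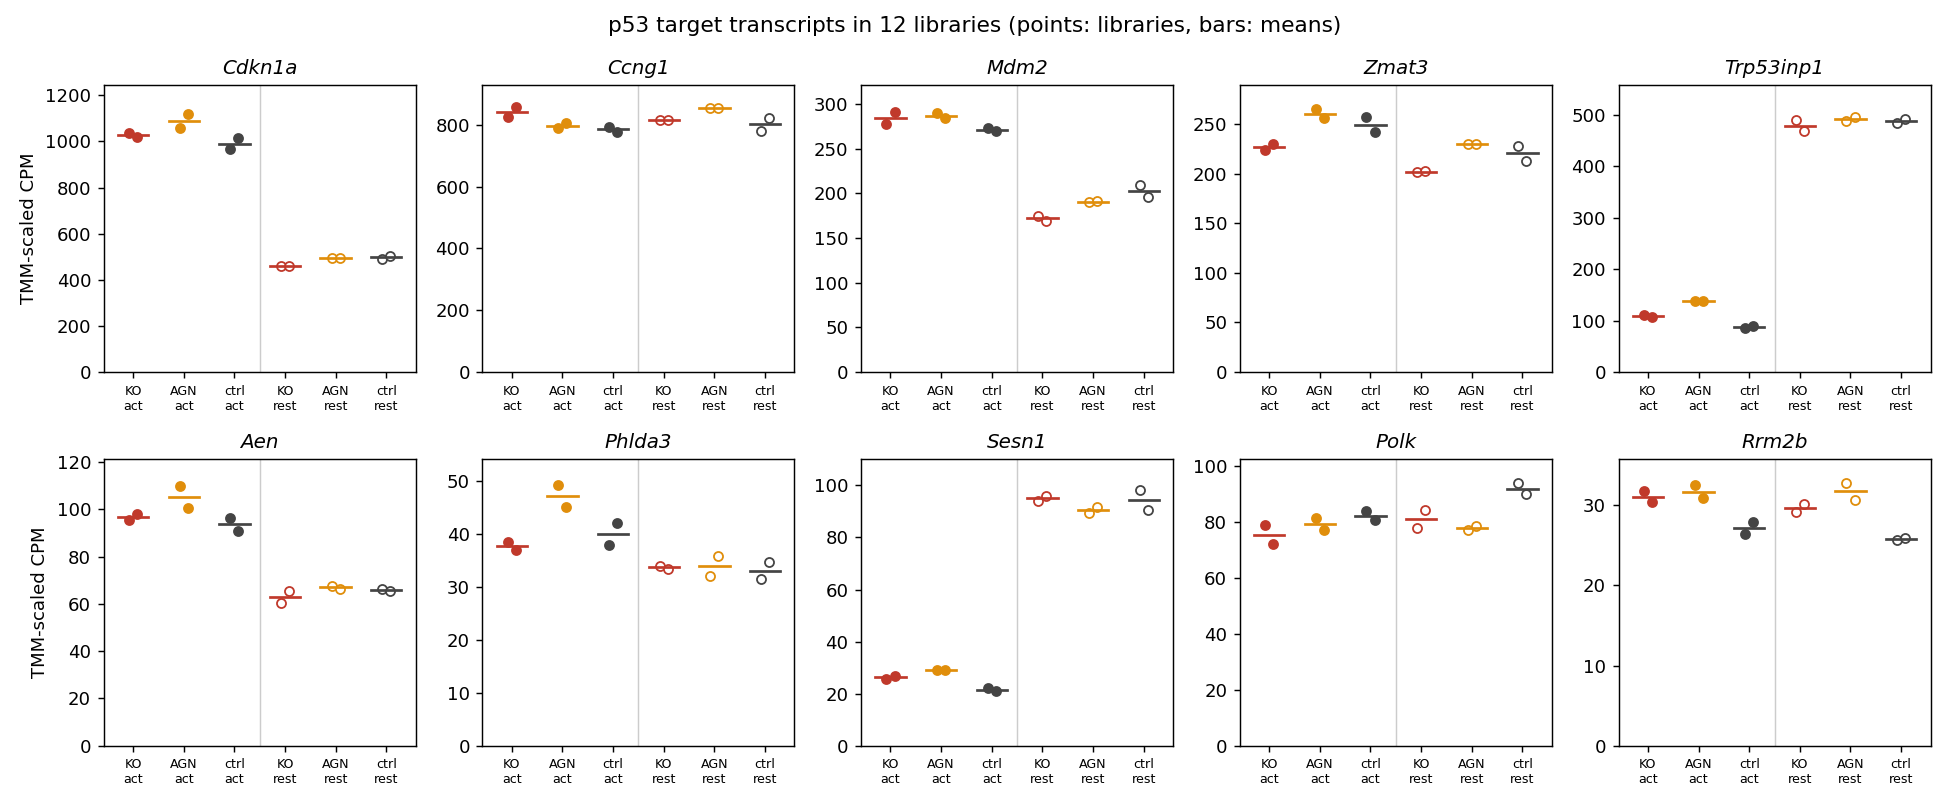
TMM-scaled CPM (vertical axis, from 0) of the 10 p53 targets in each of the 12 libraries. Points are libraries (filled, activated; open, resting), bars are means of 2, and groups are knockout (KO), AGN192403 (AGN) and control (ctrl). *Trp53inp1* and *Sesn1* were low in all 6 activated libraries, *Cdkn1a* was high in all 6, and *Ccng1* stayed between 777.1 and 856.7 CPM throughout.

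The first comparison asked how restimulation through CD3 changed these genes in control cells. The p53 targets did not move as a block. At a Benjamini-Hochberg adjusted p under 0.05 in edgeR's quasi-likelihood test, 5 of 10 were higher in activated control cells and 3 were lower, against 36.4% and 37.4% of all genes tested, so the counts as such are close to the background. The median log2 fold change of the 10 genes was 0.13, and that of all genes was −0.02. Over all genes, both activated control libraries lay above both resting ones in 42% and below both in 43.7%.

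*Cdkn1a* encodes p21, an inhibitor of cyclin-dependent kinases and the classical arrest gene of p53 (ENSMUSG00000023067, chr17:29090976-29100727, plus strand, GRCm38). It had 968.9 and 1013 CPM in activated control cells, against 492 and 502.4 CPM in resting ones, a log2 fold change of 0.99 ± 0.0386 (SE, n = 2 libraries a group, edgeR adjusted p = 1.17e-17). Every activated library of any condition lay above every resting one. An unconfirmed gene model on the opposite strand, AC167363.2, overlaps its exons, and the strand setting of the counting is not given in the sources used here.

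*Mdm2* (ENSMUSG00000020184, chr10:117688875-117710758, minus strand) encodes the ubiquitin ligase that degrades p53, and so closes a feedback loop on its own activator. It had 273 and 269.7 CPM in activated control cells, against 209.1 and 196.1 CPM in resting ones, with no overlap (log2 fold change 0.42 ± 0.0431, edgeR adjusted p = 2.63e-09).

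*Aen* (ENSMUSG00000030609, chr7:78895854-78911209, plus strand), the apoptosis-enhancing nuclease, had 96.48 and 90.62 CPM in activated control cells, against 66.44 and 65.37 CPM in resting ones (log2 fold change 0.51 ± 0.0574, edgeR adjusted p = 1.83e-08). *Phlda3* (ENSMUSG00000041801, chr1:135766119-135769136, plus strand) encodes a pleckstrin homology protein that competes with the kinase AKT for membrane lipids. Its libraries did not overlap either, with 37.99 and 42.12 CPM in activated and 31.57 and 34.65 CPM in resting control cells (log2 fold change 0.27 ± 0.0781, edgeR adjusted p = 0.0036). *Zmat3* (ENSMUSG00000027663, chr3:32334792-32366014, minus strand), an RNA-binding zinc finger protein, had 257.3 and 241.7 CPM in activated cells, against 228.3 and 212.8 CPM in resting cells (log2 fold change 0.18 ± 0.0445, edgeR adjusted p = 0.000842). These rises were small beside that of *Cdkn1a*, and the call of *Phlda3* was lost without replicate 1 of resting or replicate 2 of activated control cells.

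The falls were larger. *Trp53inp1* (ENSMUSG00000028211, chr4:11156431-11174379, plus strand) encodes a stress-induced protein of p53-dependent death and of autophagy. It had 85.48 and 89.02 CPM in activated control cells, against 485.4 and 492.9 CPM in resting ones, a log2 fold change of −2.49 ± 0.0449 (edgeR adjusted p = 3.25e-24). *Sesn1* (ENSMUSG00000038332, chr10:41809935-41908424, plus strand) encodes sestrin 1, which restrains the growth kinase complex mTORC1 when leucine is scarce. It had 22.16 and 20.98 CPM in activated control cells, against 98.21 and 90.49 CPM in resting ones, a log2 fold change of −2.12 ± 0.0656 (edgeR adjusted p = 1.14e-19). For both genes, all activated libraries of the 3 conditions lay below all resting ones.

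Changes in the 3 remaining genes were small in control cells. *Ccng1* (ENSMUSG00000020326, chr11:40748552-40755311, minus strand) encodes cyclin G1, which guides a phosphatase to MDM2. It had 794.1 and 777.1 CPM in activated control cells, against 781.3 and 823.7 CPM in resting ones, and these overlapped (log2 fold change −0.03, 95% interval −0.11 to 0.05). *Rrm2b* (ENSMUSG00000022292, chr15:37923952-37961318, minus strand), the p53-induced small subunit of ribonucleotide reductase, had 26.33 and 27.94 CPM in activated cells, against 25.58 and 25.88 CPM in resting cells (log2 fold change 0.08, interval −0.09 to 0.24). An antisense gene, Gm49085, overlaps its exons. *Polk* (ENSMUSG00000021668, chr13:96480690-96542579, minus strand) encodes DNA polymerase kappa, which copies past damaged bases. It had 83.73 and 80.55 CPM in activated cells, against 93.91 and 89.89 CPM in resting cells, and was called lower (log2 fold change −0.16 ± 0.0557, edgeR adjusted p = 0.0128), but not by DESeq2, without a filter on low counts, without the 3 libraries named above, or without replicate 1 of resting or replicate 2 of activated control cells.

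**Figure D2:**
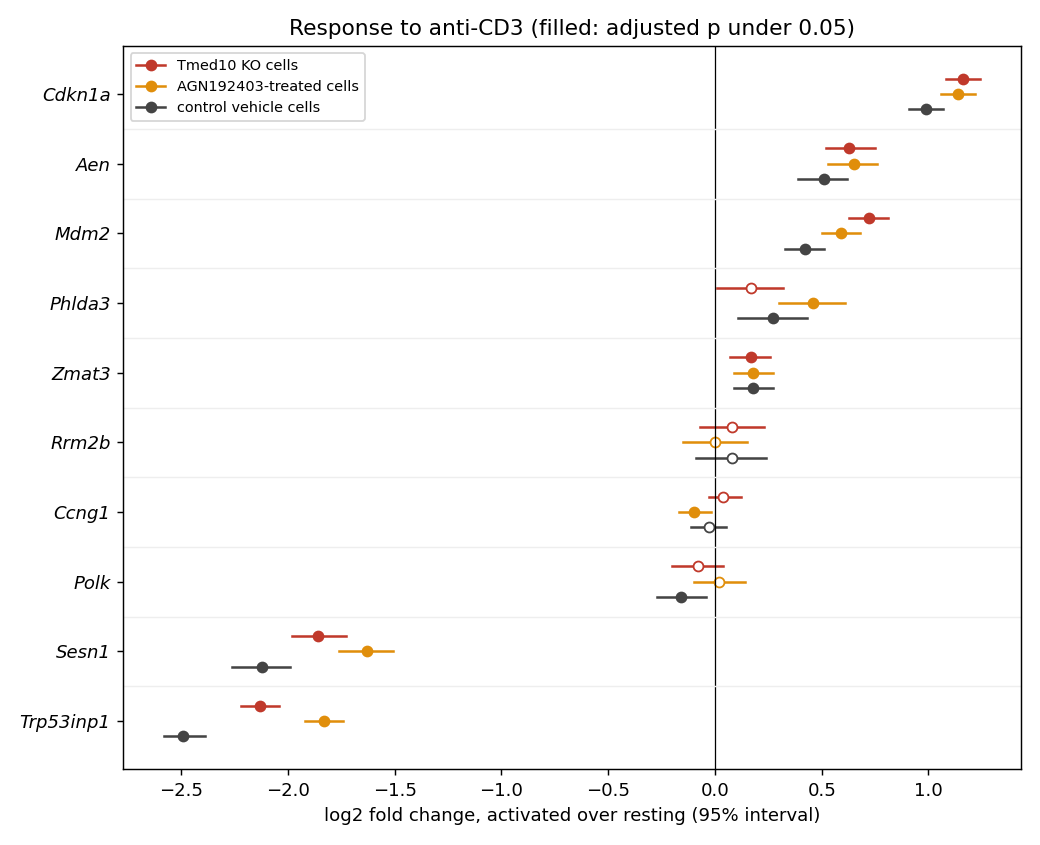
Log2 fold change of activated over resting cells (horizontal axis, with 95% intervals) for the 10 genes, within knockout, AGN192403-treated and control vehicle cells. Filled points had an adjusted p under 0.05 in edgeR. *Cdkn1a* was higher by 0.99 to 1.16 in the 3 conditions, and *Trp53inp1* lay at −2.49 in control cells, further from 0 than in the other conditions.

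The same contrast was made within the other conditions. In knockout cells, 4 of 10 genes were higher on activation and 2 lower, against 37.2% and 36.5% of all genes. In AGN192403-treated cells, 5 were higher and 3 lower, against 33.9% and 36.1%. *Cdkn1a* changed by 1.16 in knockout and 1.14 in AGN192403-treated cells on the log2 scale, *Aen* by 0.63 and 0.65, and *Zmat3* by 0.17 and 0.18. *Mdm2* changed by 0.72 in knockout and 0.59 in AGN192403-treated cells. *Phlda3* was called higher in activated than in resting AGN192403-treated cells (0.46 ± 0.0753, edgeR adjusted p = 7.13e-06) and was not called in the knockout (0.17, interval 0.01 to 0.32, edgeR adjusted p = 0.056). In the knockout it passed without a filter, in the fit of the compared libraries alone and without the 3 libraries high in nuclear RNA. *Ccng1* was called lower in activated than in resting AGN192403-treated cells by a small margin (−0.10 ± 0.0373, edgeR adjusted p = 0.0231), and that call was lost with median-ratio size factors, with DESeq2, with no filter, in the fit of the compared libraries alone, and when either resting or the first activated AGN192403 library was left out.

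Whether activation responses differed between conditions was tested by the difference itself, which is the effect of a perturbation in activated cells minus its effect in resting cells. For the knockout, 2 of 10 genes had a positive difference and none a negative one, against 3.07% and 1.89% of all genes. No negative difference had an unadjusted p under 0.05 in edgeR or was called by DESeq2, for either perturbation. The 2 genes with a positive difference for the knockout were *Trp53inp1* (0.36 ± 0.0626, edgeR adjusted p = 0.000924) and *Mdm2* (0.30 ± 0.0611, edgeR adjusted p = 0.00359). The call of *Mdm2* was lost without replicate 2 of resting or of activated knockout cells. For AGN192403, again 2 were positive and none negative, against 8.62% and 11.1% of all genes. These were *Trp53inp1* (0.66 ± 0.0618, edgeR adjusted p = 4.62e-08) and *Sesn1* (0.49 ± 0.0955, edgeR adjusted p = 0.000596). *Trp53inp1* and *Sesn1* fell on activation, so a positive difference means that they fell less. Their log2 fold changes on activation were −2.13 and −1.86 in knockout cells, −1.83 and −1.63 in AGN192403-treated cells, and −2.49 and −2.12 in control cells. For *Sesn1* the difference for the knockout, 0.27 ± 0.096, was not called (edgeR adjusted p = 0.125). Neither difference was called for *Phlda3*, at −0.10 for the knockout (edgeR adjusted p = 0.725) and 0.19 for AGN192403 (edgeR adjusted p = 0.242).

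The effect of AGN192403 was next examined in activated cells. Of the 10, 6 were higher and none lower with AGN192403, against 16.4% and 18.3% of all genes, and the median log2 fold change was 0.15, against −0.01 for all genes. None was lower at an unadjusted p under 0.05 in edgeR or called lower by DESeq2. Over all genes, both AGN192403 libraries lay above both vehicle ones in 30.5% and below both in 32.3%, so lack of overlap alone is common. In the same comparison the CD8 T cell marker sum was 16380 and 17710 CPM with AGN192403, against 23280 and 24320 CPM with vehicle. Of its 10 genes, however, 2 were higher, 3 lower and 5 not called (median log2 fold change 0.01). CD4 T cell markers summed to 95.8 and 89.89 CPM, against 59.99 and 55.21 CPM, with 2 of 4 tested genes higher and 2 not called. Myeloid markers summed to 152.5 and 165.9 CPM, against 100.3 and 106.6 CPM, with 2 of 5 tested genes higher and 3 not called. The part of these markers in the differences of p53 targets was not tested. *Trp53inp1* had 138.7 and 138.3 CPM with AGN192403, against 85.48 and 89.02 CPM with vehicle (log2 fold change 0.67 ± 0.048, edgeR adjusted p = 3.71e-11). *Sesn1* had 29.16 and 29.18 CPM with AGN192403, against 22.16 and 20.98 CPM with vehicle (0.44 ± 0.0805, edgeR adjusted p = 0.00012). Neither gene's libraries overlapped, and both levels remained far below those of resting cells, where AGN192403 libraries had 488.6 and 496.7 CPM of *Trp53inp1* and 89.19 and 91.68 CPM of *Sesn1*. *Cdkn1a* had 1059 and 1120 CPM with AGN192403, against 968.9 and 1013 CPM with vehicle (0.14 ± 0.0376, edgeR adjusted p = 0.00565), a call lost without replicate 1 of the vehicle or replicate 2 of the AGN192403 group.

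The other 3 calls were less secure. *Phlda3* had 49.36 and 45.06 CPM with AGN192403, against 37.99 and 42.12 CPM with vehicle (log2 fold change 0.23, edgeR adjusted p = 0.0148). *Rrm2b* had 32.47 and 30.87 CPM with AGN192403, against 26.33 and 27.94 CPM with vehicle (0.22, edgeR adjusted p = 0.0249), and *Aen* had 109.9 and 100.4 CPM, against 96.48 and 90.62 CPM (0.16, edgeR adjusted p = 0.0183). None of these overlapped between groups, but all 3 calls were lost in DESeq2 and in the fit without the 3 libraries high in nuclear RNA, where 3 of 10 genes (*Cdkn1a*, *Trp53inp1* and *Sesn1*) stayed called. *Mdm2*, with 289.6 and 284.8 CPM under AGN192403 and 273 and 269.7 CPM under vehicle, was not called (0.08, interval −0.01 to 0.17), nor were *Zmat3* (0.06, interval −0.03 to 0.15), *Ccng1* (0.02, interval −0.05 to 0.10) and *Polk* (−0.05, interval −0.17 to 0.06).

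In resting cells, AGN192403 left 8 of 10 genes uncalled. Only *Rrm2b* was higher and only *Polk* lower, against 11.6% and 13.7% of all genes. *Rrm2b* had 32.76 and 30.68 CPM with AGN192403, against 25.58 and 25.88 CPM with vehicle (log2 fold change 0.29 ± 0.077, edgeR adjusted p = 0.00589). That call was lost in DESeq2 and without replicate 1 of the AGN192403 group. *Polk* had 77.04 and 78.59 CPM with AGN192403, against 93.91 and 89.89 CPM with vehicle (−0.24 ± 0.0564, edgeR adjusted p = 0.00283), and kept its call in every alternative run. *Cdkn1a*, at 496.4 and 495.2 CPM with AGN192403 and 492 and 502.4 CPM with vehicle, overlapped between groups (0, interval −0.09 to 0.08).

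**Figure D3:**
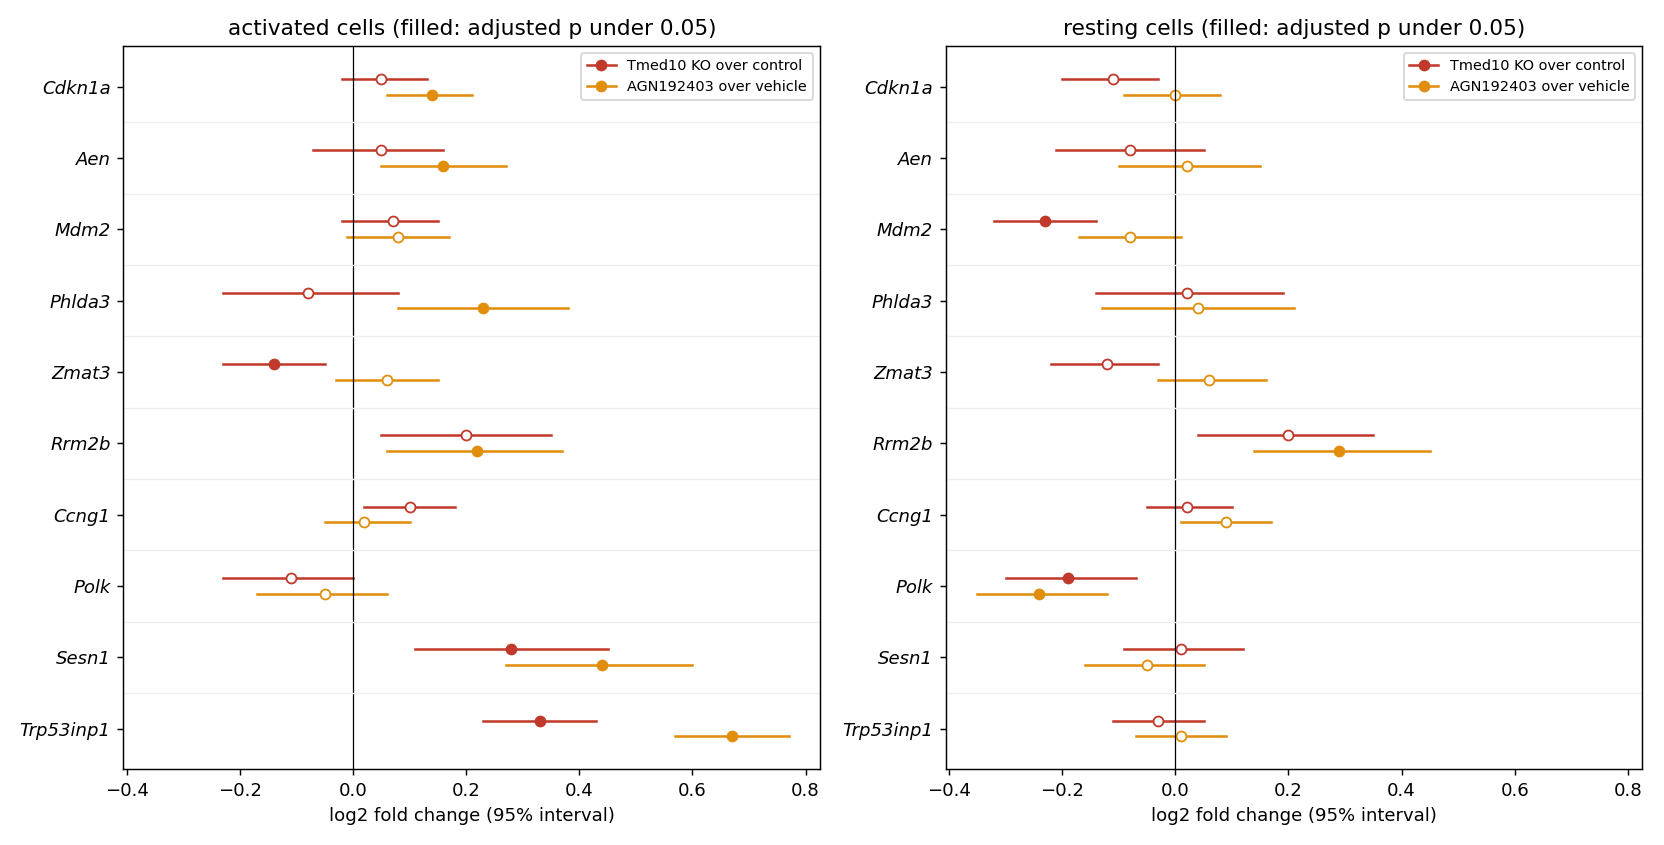
Log2 fold change (horizontal axis, with 95% intervals) of the 10 genes in knockout over control cells and in AGN192403 over vehicle cells, for activated (left) and resting (right) cells. Filled points had an adjusted p under 0.05 in edgeR. In activated cells *Trp53inp1* lay at 0.33 in the knockout and 0.67 with AGN192403, while in resting cells it lay at −0.03 and 0.01.

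In activated *Tmed10* knockout cells, 2 of 10 genes were higher and 1 was lower, against 10.8% and 8.78% of all genes, with a median log2 fold change of 0.06 (0.02 for all genes). *Trp53inp1* had 111.7 and 106.8 CPM in activated knockout cells, against 85.48 and 89.02 CPM in activated controls (log2 fold change 0.33 ± 0.049, edgeR adjusted p = 2.13e-05), a call that held in every alternative. *Sesn1* had 25.79 and 26.9 CPM in the knockout, against 22.16 and 20.98 CPM in controls (0.28 ± 0.0816, edgeR adjusted p = 0.0154). *Zmat3* had 223.5 and 230.5 CPM in the knockout, against 257.3 and 241.7 CPM in controls (−0.14 ± 0.0442, edgeR adjusted p = 0.0288). None of the 3 overlapped between groups. Over all genes, both knockout libraries lay above both controls in 31.5% and below both in 26.1%. The call of *Sesn1* was lost in DESeq2 and without replicate 2 of the controls or either knockout library, and that of *Zmat3* in DESeq2, without a filter, without the 3 libraries high in nuclear RNA, and without the first library of either group. *Cdkn1a* had 1037 and 1021 CPM in activated knockout cells, against 968.9 and 1013 CPM in controls, and was not called (0.05, interval −0.02 to 0.13).

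In resting cells none of the 10 genes was higher in the knockout and 2 were lower, against 2.81% and 4.63% of all genes. Over all genes, both knockout libraries lay above both controls in 25.6% and below both in 25.6%. At an unadjusted p under 0.05, edgeR put *Rrm2b* higher, at 29.07 and 30.13 CPM in the knockout and 25.58 and 25.88 CPM in controls (log2 fold change 0.20, edgeR adjusted p = 0.135), and DESeq2 also called none higher. *Mdm2* had 175.1 and 169.1 CPM in resting knockout cells, against 209.1 and 196.1 CPM in resting controls (−0.23 ± 0.0445, edgeR adjusted p = 0.00145). Leaving out replicate 1 of the controls or replicate 2 of the knockout ended the call, with adjusted p-values of up to 0.0849 over its alternatives. *Polk* had 77.71 and 84.27 CPM in the knockout, against 93.91 and 89.89 CPM in controls (−0.19 ± 0.0557, edgeR adjusted p = 0.0367), and lost its call whenever 1 library of either group was left out, with either other scaling, in DESeq2 and without the 3 libraries high in nuclear RNA. *Cdkn1a*, with 458 and 460.9 CPM in the knockout and 492 and 502.4 CPM in controls, did not overlap but was not called (−0.11 ± 0.0391, edgeR adjusted p = 0.078). It passed with a filter of 5 CPM, in the fit of the compared libraries alone and without the 3 libraries high in nuclear RNA.

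Knockout and AGN192403-treated cells were also compared directly. These groups differ in both guide and compound. In neither state was any of the 10 genes higher in the knockout, whether called by edgeR or DESeq2 or taken at an unadjusted p under 0.05 in edgeR. In activated cells, 3 of 10 genes were lower in the knockout and none higher, against 7.34% and 13.0% of all genes: *Trp53inp1* (−0.34 ± 0.0466, edgeR adjusted p = 7.65e-06), *Phlda3* (−0.31 ± 0.0728, edgeR adjusted p = 0.00304) and *Zmat3* (−0.20 ± 0.0441, edgeR adjusted p = 0.00182). For *Phlda3*, activated knockout cells had 38.53 and 37.02 CPM and AGN192403-treated cells 49.36 and 45.06 CPM. In resting cells, 2 were lower in the knockout and none higher, against 7.78% and 8.83% of all genes. These were *Zmat3*, with 202 and 202.5 CPM in the knockout and 230.4 and 230.3 CPM with AGN192403 (−0.19 ± 0.045, edgeR adjusted p = 0.00429), and *Mdm2* (−0.15 ± 0.0447, edgeR adjusted p = 0.0239). Both resting calls were lost when any 1 of the 4 libraries was left out. That of *Mdm2* was also lost with median-ratio size factors and in DESeq2, where that of *Zmat3* held. The sum of nuclear long RNAs was lower in the knockout than with AGN192403 in both states, and its part in these differences was not tested.

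*Trp53*, which encodes p53, was then examined. It had 163.1 and 171.2 CPM in activated knockout, 151.6 and 152.8 CPM in activated AGN192403 and 154.4 and 170.4 CPM in activated control cells, and 159.5 and 157.8, 157.1 and 156.3, and 162.6 and 159.3 CPM in the same conditions at rest. edgeR called it in none of the 4 comparisons with control or vehicle (adjusted p from 0.136 to 0.881), nor on activation of control cells (log2 fold change 0.01, edgeR adjusted p = 0.806). *Mdm4*, a relative of MDM2 that masks the activation domain of p53, fell on activation of control cells (−0.43 ± 0.056, edgeR adjusted p = 1.73e-07), while *Mdm2* rose. Of 19 tested genes on a list of p53 and its regulators, 6 were higher and 10 lower in activated control cells, against 36.4% and 37.4% of all genes. With AGN192403 in activated cells, 8 were lower and 11, *Trp53* among them, were not called, against 18.3% of all genes lower, and the lower ones included the checkpoint kinases *Chek1* (−0.67) and *Chek2* (−0.52). In activated knockout cells 1 was higher and 6 were lower, among them *Huwe1* (−0.88), *Prkdc* (−0.73) and *Atm* (−0.63), which encode a ubiquitin ligase and 2 kinases of the DNA damage response, against 10.8% and 8.78% of all genes. Nuclear long RNAs were lower in the same comparison (3 of 4, median −1.20), and the summed level of p53 and its regulators was higher in each of the 3 libraries high in nuclear RNA than in its replicate, at 3529 and 3099 CPM in activated AGN192403, 3656 and 3549 CPM in activated control and 3529 and 3349 CPM in resting control cells. The part of nuclear RNA in these falls was not tested. The genes of this list at rest numbered 1 higher and 4 lower in the knockout, against 2.81% and 4.63% of all genes, and 4 higher and 6 lower with AGN192403, against 11.6% and 13.7%.

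A wider list of 40 established p53 targets, 38 of which passed the filter, held genes called in both directions. On activation of control cells 12 were higher and 20 lower, against 36.4% and 37.4% of all genes, with a median log2 fold change of −0.19 (−0.02 for all genes). *Plk2*, a polo-like kinase, had 97.56 and 104.1 CPM in activated control cells, against 12.59 and 12.79 CPM in resting ones (2.99 ± 0.0713, edgeR adjusted p = 6.85e-22). *Perp* and *Gls2* were also among those that rose (2.11 and 1.95). In activated cells, 7 of the 38 were higher and 7 lower with AGN192403 (16.4% and 18.3% of all genes), and 5 were higher and 2 lower in the knockout (10.8% and 8.78% of all genes), so these counts are near the background. *Plk2* was higher in both (0.62 with AGN192403 and 0.54 in the knockout), and the mitotic genes *Ckap2* (−0.99) and *Gtse1* (−0.75) were the largest falls with AGN192403 in this list. In resting cells, 3 were higher and 6 lower with AGN192403 (11.6% and 13.7% of all genes), and 3 were lower and 35 not called in the knockout (4.63% of all genes lower).

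Relatives of the 10 genes, mostly outside the p53 program, offered a comparison within each family. *Sesn2*, however, also stands on the wider list of p53 targets. *Cdkn1b*, encoding the kinase inhibitor p27, had 38.66 and 36.5 CPM in activated control cells, against 176.6 and 168.8 CPM in resting ones (log2 fold change −2.20 ± 0.0558, edgeR adjusted p = 2.09e-21), opposite in direction to *Cdkn1a*. *Ccng2* fell (−1.58), and *Ccng1* was not called (−0.03). Among sestrins, *Sesn3* fell with *Sesn1* (−1.57), whereas *Sesn2* rose, with 103.8 and 104.6 CPM in activated and 85.02 and 90.79 CPM in resting control cells (0.24 ± 0.0493, edgeR adjusted p = 0.000104). *Sesn2* was also higher in activated cells with AGN192403 (0.47 ± 0.046, edgeR adjusted p = 9.06e-09) and in the knockout (0.37 ± 0.0463, edgeR adjusted p = 2.39e-06). *Sesn3* was not called in either, at −0.02 with AGN192403 and −0.03 in the knockout.

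Among subunits of ribonucleotide reductase in activated cells, *Rrm1* and *Rrm2* were lower with AGN192403, and *Rrm2b* was higher with a less secure call. *Rrm1*, its large subunit, had 154.7 and 160 CPM in AGN192403-treated activated cells, against 311.3 and 321 CPM with vehicle (log2 fold change −1.01 ± 0.0429, edgeR adjusted p = 2.88e-15). *Rrm2*, the S-phase small subunit, had 121.1 and 116.6 CPM, against 225 and 228.5 CPM (−0.93 ± 0.0457, edgeR adjusted p = 3.14e-14). *Rrm2b*, the p53-induced small subunit, lay at 0.22 in the same comparison, and its call was lost in DESeq2, as given above. *Rrm1* and *Rrm2* were lower in activated knockout cells as well (−0.27 and −0.35), where *Rrm2b* lay at 0.20 and was not called. *Trp53inp2* was higher with AGN192403 in activated cells (0.47), like *Trp53inp1*, and lower in resting knockout cells (−0.41). Among other polymerases that copy past damage, *Poli* fell on activation of control cells (−1.41) and *Rev1* rose (0.36).

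**Figure D4:**
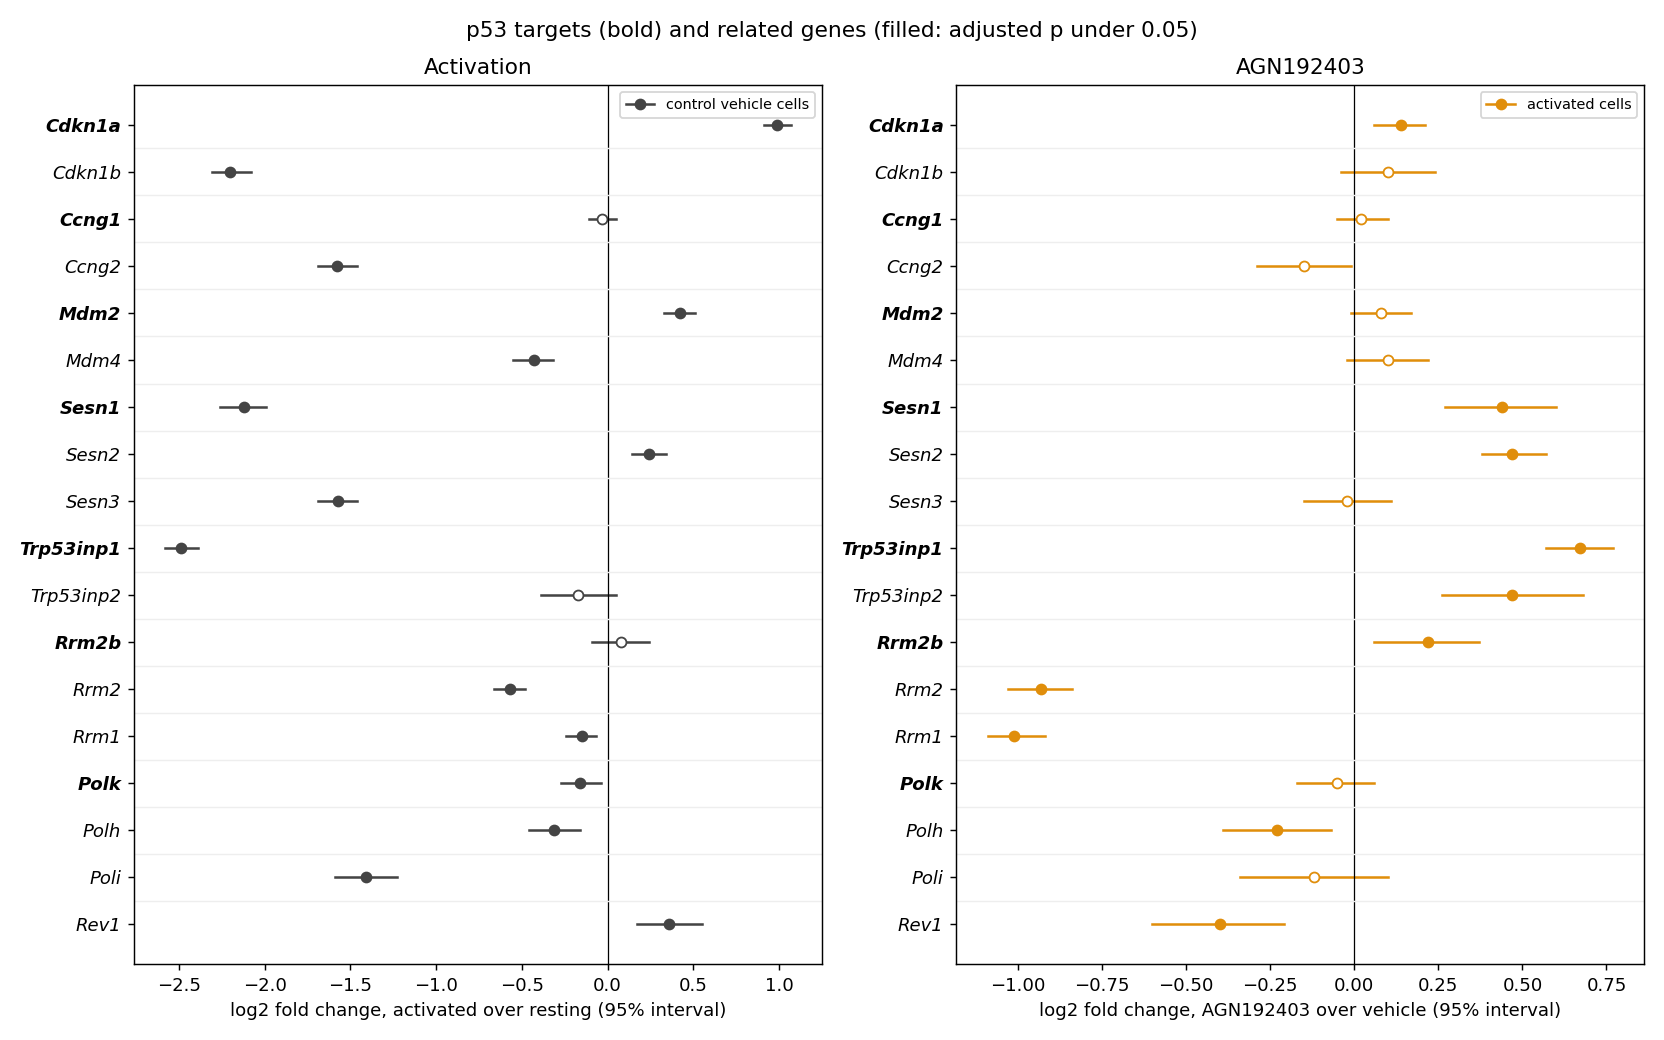
Log2 fold changes (horizontal axes, with 95% intervals) of p53 targets (bold) and of relatives or partners, on activation of control cells (left) and with AGN192403 in activated cells (right). Filled points had an adjusted p under 0.05 in edgeR. *Cdkn1a* and *Cdkn1b* lay at 0.99 and −2.20 on activation, and *Rrm2b* and *Rrm2* at 0.22 and −0.93 with AGN192403.

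Kinases, cyclins and PCNA, which bind p21, formed a list of 11 genes. For this list and the next ones, the shares of all genes higher and lower were 16.4% and 18.3% with AGN192403 and 10.8% and 8.78% in the knockout in activated cells, 11.6% and 13.7% with AGN192403 and 2.81% and 4.63% in the knockout at rest, and 36.4% and 37.4% on activation of control cells. With AGN192403 in activated cells 2 were higher and 9 lower (median −0.45), led by *Ccna2* and *Cdk1* (−1.25 each), and in activated knockout cells 4 were lower and 7 not called, *Cdk1* at −0.43 and *Ccna2* at −0.39. At rest, 2 were higher and 5 lower with AGN192403, and 1 was higher and 10 were not called in the knockout. On activation of control cells, 3 were higher and 6 lower. Of 12 known targets of FOXO factors, which include *Cdkn1b*, *Ccng2* and *Sesn3*, 2 were higher and 8 lower in activated control cells, with a median of −1.58. In activated cells 3 were higher and 3 lower, both with AGN192403 and in the knockout. At rest, 7 of the 12 were lower and 5 not called with AGN192403 (median −0.26), and 2 were higher and 3 lower in the knockout (median −0.09). Of 10 targets of the stress factor ATF4, which include *Sesn2*, 8 were higher and 2 lower in activated cells, again both with AGN192403 (median 0.63) and in the knockout (median 0.49). At rest, 9 were higher and 1 lower with AGN192403, and 5 were higher and 5 not called in the knockout. Both counts rest on the same control libraries.

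Genes with the most similar course over the 6 group means were sought among 9403 genes with at least 10 CPM in a group, after centring log2 CPM of each gene on its own mean. The measure was the root mean square of the differences, which is 0 for identical courses. *Cdkn1a* was followed most closely by *Alas1* (0.0254), *Slc41a1* (0.0435) and *Wdr59* (0.0437), and *Mdm2* by *Mob1b* (0.0352). *Trp53inp1* was followed by *Tlr1* (0.0805), *Klhl24* (0.0885) and *Lgals8* (0.0889), and *Sesn1* by *Zbtb42* (0.0376), *Slc52a3* (0.0497) and *F2rl1* (0.0516). *Ccng1*, which hardly varied, was nearest to the ribosomal protein genes *Rps14* (0.0171) and *Rps3* (0.0196). The nearest gene was *Snx15* for *Zmat3* (0.0253), *Pign* for *Aen* (0.0289), *Gprasp1* for *Phlda3* (0.0367) and A230050P20Rik for *Rrm2b* (0.0154). For scale, the root mean square of the course itself was 1.09 for *Trp53inp1*, 0.941 for *Sesn1*, 0.551 for *Cdkn1a* and 0.0427 for *Ccng1*, so a small distance says little for genes that hardly varied.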

How the data were processed

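Polyadenylated RNA was sequenced by the study with a stranded kit in 12 libraries, 2 for each of 6 groups that the labels name. The values deposited are raw counts of reads per gene. Per the submitters' processing notes, the authors aligned reads to GRCm38 (mm10) by STAR 2.6.0c and counted them by HTSeq. A different STAR version stands in the study's methods. The strand setting of HTSeq is not given in the sources used here, so reads of overlapping genes on opposite strands may be shared. Symbols were given to 46091 of 46603 identifiers, and gene positions came from the GENCODE M21 annotation of the same build.

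The counts were fitted in edgeR 4.0.16 (R 4.3.3). filterByExpr kept 13167 genes with 99.9% of the counts, and TMM factors ran from 0.976 to 1.02. The quasi-likelihood model had a mean for each of the 6 groups and used all 12 libraries (6 residual degrees of freedom, common biological coefficient of variation 0.0306). Genes with a Benjamini-Hochberg adjusted p under 0.05, taken over all genes of a contrast, were called, in 11 contrasts. Errors are standard errors taken from the F statistic, and intervals cover 95%. CPM per kb divides by the union of annotated exons. Replicate libraries differed by more than counting noise in every group (chi-square per degree of freedom 1.14 to 3.96), so none was merged. The 10 genes, the companion lists and the rule for named genes were chosen with earlier results of these data known. The rule names all 10 genes and *Tmed10* in every contrast, *Trp53*, *Mdm4* and relatives of the 10 genes in any, up to 4 called genes of a companion list in a contrast by size of change among those with at least 10 CPM, and the 3 nearest genes in course, not all of which are reported here.

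Alternatives were library totals in place of TMM, median-ratio size factors, no filter, a filter of 5 CPM, a block for replicate number, only the compared libraries, DESeq2 1.42.0 and leaving out each library in turn. In that case, the remaining library of a group was taken to have the spread of the other groups. A fit without the first libraries of 3 groups (control at rest, control activated, AGN192403 activated) was added after their nuclear RNA had been seen. Promoter windows of 250 bases before and 50 bases after a start came from RefSeq.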

Additional observations from a re-analysis of the deposited data

Results flagged for a closer look

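Differences between the effect of a perturbation in activated cells and its effect in resting cells passed edgeR's quasi-likelihood test for 3 of the 10 genes, all positive. Over all genes, 3.07% had a positive difference for the knockout and 8.62% for AGN192403. *Trp53inp1* differed both ways. The AGN192403 effect was larger in activated than in resting cells by 0.66 on the log2 scale (adjusted p = 4.62e-08), and so was the knockout effect, by 0.36 (adjusted p = 0.000924), and both calls held in every alternative run. All 4 activated libraries with a perturbation had more *Trp53inp1* than the 2 activated controls. *Sesn1* differed for AGN192403 by 0.49 (adjusted p = 0.000596), with 29.16 and 29.18 CPM in activated treated cells, against 22.16 and 20.98 CPM in activated vehicle cells, and this call too held in every alternative. *Mdm2* differed for the knockout by 0.3 (adjusted p = 0.00359), with an effect of 0.07 in activated and −0.23 in resting cells, neither of which overlapped between groups. The effect in activated cells was not called, and the call of the difference was lost without replicate 2 of resting or of activated knockout cells. Of all genes, 31.5% had both knockout libraries above both controls and 26.1% had both below in activated cells. At rest these shares were 25.6% and 25.6%. The sum of nuclear long RNAs was lower in knockout than in control libraries in both states. Its part in the difference for *Mdm2* was not tested.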

How the results depend on the processing

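Over 1400 refits of single genes, 1291 kept their side of the threshold, 64 lost a call and 45 gained one. A change of sign counted as a reversal only where either fit was called, and 0 were found. Changes of sign between uncalled fits were counted as kept. In 80 of the 110 combinations of gene and contrast, every fit kept its side of the threshold. Most counts that moved are of 1 or 2 genes. Members called lower in resting knockout cells numbered 1 with median-ratio size factors, with library totals and in DESeq2, and 0 to 1 when 1 library was left out (2 in the fit reported). In activated knockout cells, DESeq2 called 1 higher, and 0 were lower in DESeq2, without a filter and without the 3 libraries high in nuclear RNA. Leaving out 1 library gave 1 to 2 higher and 0 to 1 lower. In resting AGN192403 cells, 2 were higher with library totals and with only the compared libraries, 0 in DESeq2, and 0 to 2 with 1 library left out. In activated AGN192403 cells, 3 were higher in DESeq2 and without those 3 libraries, and 3 to 5 with 1 library left out. The difference for the knockout kept 1 to 2 of its 2 positive calls with 1 library left out, and that for AGN192403 gave 4 with library totals and with a filter of 5 CPM. Members lower in resting knockout than in AGN192403 cells numbered 1 with median-ratio size factors and in DESeq2, 4 with only the compared libraries and 0 with any library left out, and in activated cells 5 with library totals. The cause of these moves was not tested, except that fits of fewer libraries have fewer degrees of freedom.

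Replicate numbers were not taken to pair the samples, since no label says so and, over 15 pairs of groups, deviations of same-numbered libraries correlated at −0.00507 to 0.239, with only 3 above 0.1. Those 3 (0.189, 0.213 and 0.239) were the pairs formed by the 3 groups whose first libraries were high in nuclear RNA. With a replicate block, positive differences for AGN192403 numbered 4 (*Cdkn1a*, *Mdm2*, *Trp53inp1* and *Sesn1*), against 2 without it. Under the block 7 single calls were gained and 0 lost, and no other count of members moved by over 1.5 times.

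Over all genes tested, DESeq2 called fewer than edgeR for both perturbations. In resting cells it called 380 against 979 genes for the knockout and 1935 against 3341 for AGN192403. In activated cells these were 1430 against 2583 and 3031 against 4570. For the differences between states they were 312 against 653 and 1491 against 2592, and for the knockout against AGN192403 1297 against 2186 at rest and 1525 against 2673 on activation. Other scalings moved the median of all genes by at most 0.047 on the log2 scale.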
